A study of Mus musculus with 40 samples.

Results

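Epiblast cells of the mid blastocyst (E4.0 Epi) were compared with inner cell mass cells of the early blastocyst (E3.5 ICM) across the autosomal genes. The Epi cells were the E4.0 cells that the study had classed as epiblast from the expression of lineage factors, 10 cells of 2 embryos, and the ICM cells were the 14 E3.5 cells of 7 embryos classed as ICM. Together they made up 24 of the 40 single cells of the series, the other cells being E3.5 trophectoderm (TE) and E4.0 primitive endoderm (PrE). All cells came from female F1 hybrid embryos, with C57BL/6J as the maternal and CAST/EiJ as the paternal strain, obtained by natural mating and, per the labels, not kept in embryo culture. By the study's methods, ICMs were isolated by immunosurgery, in which a short incubation of the blastocyst in antiserum and then in complement kills the outer trophectoderm cells. Embryo 4, however, gave a TE cell of the series as well as its ICM cell. Both had been made for an earlier study, and how they were isolated is not known here. The labels name no transgene and no drug. Each cell's polyadenylated RNA was copied into cDNA from the 3′ end, and the cDNA was amplified and sequenced.

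The ICM of the early blastocyst is made of cells that will become either epiblast, the source of the embryo proper, or primitive endoderm, which lines the blastocoel and builds extraembryonic membranes. Both fates start from cells that hold NANOG and GATA6 together. FGF4 secreted by epiblast precursors acts through FGF receptors and ERK to push neighbouring cells towards primitive endoderm, while epiblast cells keep NANOG and SOX2 and lose GATA6. The comparison therefore asks what distinguishes an epiblast cell of the mid blastocyst from the mixed population from which it arose.

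The design limits what can be read from it. Embryo 14 gave 9 of the 10 Epi cells and embryo 17 gave a single cell, so that stage, class and embryo cannot be told apart. Counts were summed per embryo, and the 9 sums held between 7624408 and 71761691 counts. They are given as CPM, the count of a gene scaled by the size of the sum and its TMM factor, and a level is stated for each Epi embryo and as the lowest, median and highest of the 7 ICM embryos. Single cells held 6013161 to 11236299 counts in the Epi class and 2671531 to 12833051 in the ICM class. No pair of cells had identical counts. The ICM cell of embryo 4 and a cell each of embryos 8 and 12 had been made for an earlier study, and a cell of embryo 10 had fewer than 70% of its reads mapped, so counts of genes are also given without them. RPRT is the authors' normalized level of a gene in a cell, scaled to retrotranscribed length and depth, and a gene was called detected above an RPRT of 1. Pearson correlations of log2(RPRT + 1) between cells were taken over 8714 autosomal genes. Within an embryo their median was 0.687 for Epi cells (embryo 14, 36 pairs) and 0.715 for ICM cells (10 pairs). Across embryos it was 0.654 for Epi cells (9 pairs, each with the cell of embryo 17) and 0.662 for ICM cells (81 pairs). Pairs of an Epi and an ICM cell had a median of 0.608 (140 pairs).

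Markers of the epiblast were detected in all or most Epi cells, and the Epi embryos lay above the ICM median for Sox2, Nanog, Bmp4, Fgf4 and Prdm14, with ranges that overlapped for all of these but Bmp4. These genes belong to the kind used to class the cells, so that their values describe the classes and are no independent evidence of them. Sox2, a core pluripotency factor, stood at 303 CPM in embryo 14 and 546 CPM in embryo 17, against 14.5, 108 and 411 CPM as the lowest, median and highest of the ICM embryos. Nanog, the homeobox factor of the naive epiblast, was at 444 and 555 CPM in Epi and between 22.2 and 1044 CPM in ICM embryos, with a median of 211 CPM. Embryos at the low end of the ICM for both genes were 4 and 13, and embryo 11 was at the high end. Bmp4, a ligand of the BMP pathway, did separate the groups, with 328 and 382 CPM in Epi against a highest ICM value of 263 CPM. Fgf4, the ligand made by epiblast precursors, was at 161 and 194 CPM in Epi and ran from 0 to 396 CPM over the ICM embryos, detected in 10 of 10 Epi cells and in 10 of 14 ICM cells. Tdgf1, the NODAL co-receptor Cripto, differed between the Epi embryos themselves, with 1382 CPM in embryo 14 and 233 CPM in embryo 17, and the second value lay below the ICM median of 338 CPM. Prdm14, a repressor that protects naive pluripotency, was at 81.0 and 34.5 CPM in Epi and at a median of 7.58 CPM in ICM. Pou5f1, which encodes OCT4, was at 755 and 448 CPM in Epi and at a median of 538 CPM in ICM embryos, with no steady direction across the alternative fits. None of these genes passed the edgeR test (adjusted p from 0.615 for Sox2 and Tdgf1 to 0.985 for Pou5f1, Benjamini-Hochberg).

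**Figure D1:**
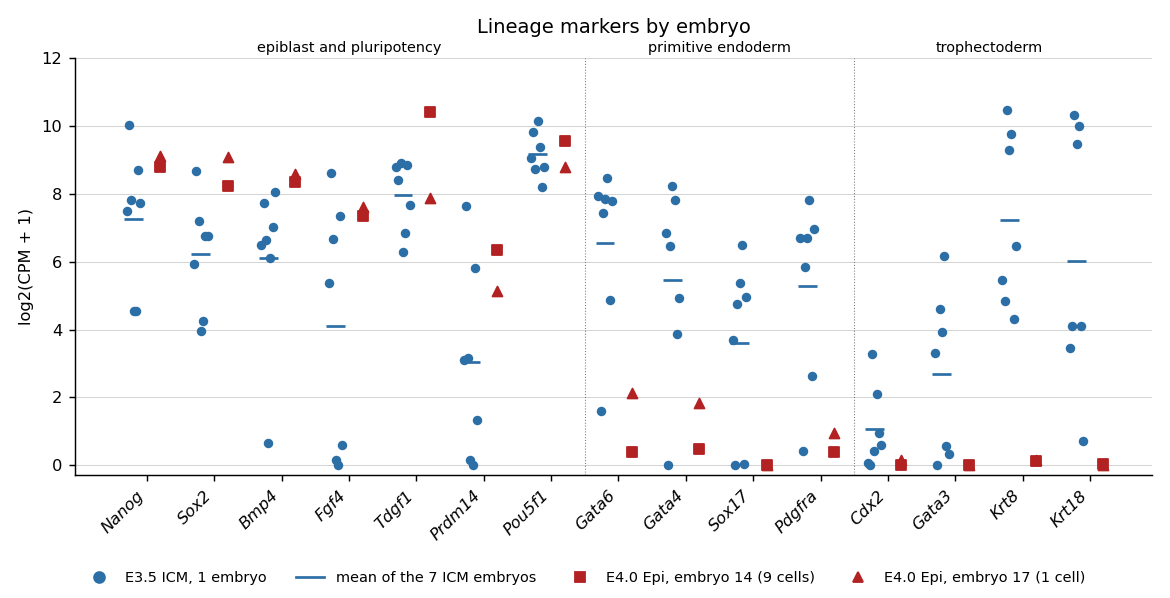
Levels of lineage markers as log2(CPM + 1), with a blue point for each of the 7 E3.5 ICM embryos, a blue bar for the mean of their log2 values, a red square for Epi embryo 14 and a red triangle for Epi embryo 17. Epiblast markers of Epi embryos lie within or just above the ICM range, whereas Krt8 and Krt18 lie near 0 in Epi and reach 1431 and 1276 CPM in ICM embryos. Gata6 is at 0.30 and 3.39 CPM in Epi and runs from 2.03 to 354 CPM in ICM embryos.

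Gata6, Krt8 and Krt18, known from the alternative lineages, were nearly absent from Epi cells and detected in at least 13 of 14 ICM cells, while other genes of these lineages were detected in Epi cells too. As Epi cells were told from PrE cells by lineage factors, low levels of such genes in Epi follow in part from how the cells were classed. Gata6, an early primitive endoderm factor, was at 0.30 and 3.39 CPM in Epi and ran from 2.03 to 354 CPM in ICM, with a median of 222 CPM. The ranges overlapped, since ICM embryo 11 lay below Epi embryo 17. Gata6 was detected in 1 of 10 Epi cells, at an RPRT of 2.17, and in 14 of 14 ICM cells, the lowest at 1.08. Gata4, which follows Gata6 in that lineage, was at 0.382 and 2.57 CPM in Epi and at a median of 86.5 CPM in ICM, and ran from 0 to 303 CPM there. Sox17 had no count in either Epi sum, and its ICM mean of 28.2 CPM was at least 770-fold higher than the 3 counts over the group that a count of 0 allows. Pdgfra, the PDGF receptor of primitive endoderm, was detected in 0 of 10 Epi and 12 of 14 ICM cells. The keratin genes Krt8 and Krt18, known from trophectoderm epithelium, were at medians of 86.9 and 16.3 CPM in ICM, and no Epi sum of either exceeded 0.117 CPM. Krt8 was detected in 14 of 14 ICM cells and in 1 of 10 Epi cells. High keratin levels lay in ICM embryos 4, 12 and 13, where Krt18 was at 1020, 1276 and 704 CPM, while no other ICM embryo exceeded 16.3 CPM. The part of these embryos in the results was tested only by leaving each out. Cdx2, the defining trophectoderm factor, was low in both classes (highest ICM sum 8.71 CPM, highest Epi sum 0.117 CPM), and Gata3 had no count in Epi and up to 71.1 CPM in ICM.

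As whole lists, 25 of 27 primitive endoderm genes tested and 19 of 22 trophectoderm genes had a log2 fold change below 0 (Epi minus ICM), against 56.2% of all autosomal genes tested. Their medians were -4.58 and -3.81 beside -0.22 over all genes, and 11 and 7 of them had an unadjusted p under 0.05 in the lower direction, a share that was 4.75% over all genes. No member passed the adjusted threshold in edgeR. The summed level of the 28 primitive endoderm genes was 714 and 1099 CPM in the Epi sums and ran from 489 to 13135 CPM over the ICM sums with a median of 3737 CPM, so that the lowest ICM embryo fell below both Epi embryos. The 25 trophectoderm genes summed to 354 and 441 CPM in Epi and to 411 to 4848 CPM in ICM, with 5 of them at 0 in Epi, Gata3 and Tspan8 among these. These shares and medians describe the classes and are no independent evidence of them, for the reason given above. Some members were present in Epi cells: Apoe, an apolipoprotein gene, was detected in 10 of 10 Epi and 13 of 14 ICM cells, and Atp1b1, a sodium pump subunit gene, in 9 of 10 and 13 of 14, both chosen after their values were seen. An exception in direction among primitive endoderm list members was Nid2, which encodes the basement membrane protein nidogen-2. It was at 235 and 138 CPM in Epi and did not exceed 20.1 CPM in any ICM embryo. The epiblast and pluripotency list had 19 of 30 members above 0, a median of 0.46 and summed levels that overlapped (10903 and 11491 CPM in Epi, 9373 to 15679 CPM in ICM).

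Within single cells, Nanog was detected throughout both classes, and the classes differed in its combination with Gata6. Both are lineage factors of the kind by which cells were classed, so that this describes the classes. Every one of the 14 ICM cells had both genes above an RPRT of 1, and 1 of 10 Epi cells did, the other 9 having Nanog without Gata6. Nanog ran from an RPRT of 11.4 to 411 over ICM cells and from 83.6 to 330 over Epi cells. Gata6 ran from 1.08 to 201 over ICM cells and from 0 to 2.17 over Epi cells, and its highest Epi value came from the cell of embryo 17. The ICM cells with the lowest Gata6, the cell of embryo 11 at 1.08 and a cell of embryo 12 at 1.09, had a Nanog RPRT of 411 and 167. Fgf4 without its receptor gene Fgfr2 was found in 10 of 10 Epi cells. In the ICM, 5 cells had Fgf4 alone, 4 had Fgfr2 alone and 5 had both.

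**Figure D2:**
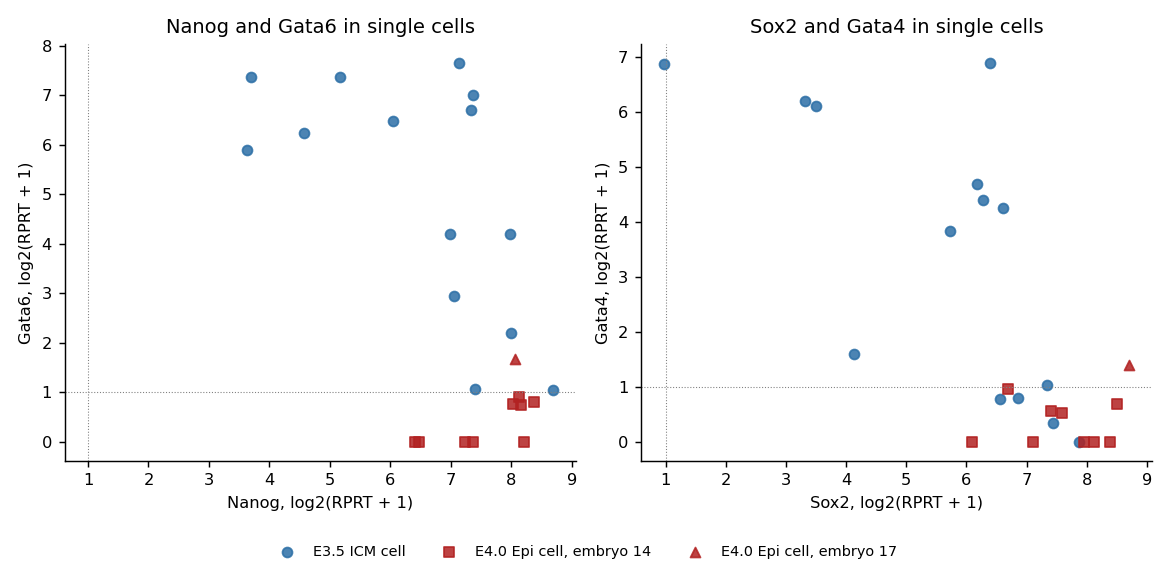
Nanog against Gata6 and Sox2 against Gata4 in single cells, both axes as log2(RPRT + 1), with blue points for the 14 ICM cells, red squares for the 9 Epi cells of embryo 14 and a red triangle for the Epi cell of embryo 17. Dotted lines mark an RPRT of 1, and the Epi cells fill the lower right corner while ICM cells spread from there to high Gata6 and Gata4.

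Across the genome, 11506 autosomal genes were tested and 3 were higher in Epi at an adjusted p of 0.05 in edgeR (0.0261%), while 0 were lower (0%). At an unadjusted p under 0.05, 322 genes were higher (2.80%) and 547 lower (4.75%). The other tools divided differently: limma-voom called 159 higher (1.38%) and 19 lower (0.165%), DESeq2 called 77 higher and 508 lower, and limma-trend on the mean of cells called 37 and 26. The limma-voom calls are given here only as a second reading beside the values. On counts simulated with edgeR's dispersions of these sums, limma-voom made more false calls than its threshold allows. Such counts follow the model of edgeR and cannot show which tool errs on the real sums. Both Epi embryos lay above all 7 ICM embryos for 628 genes (5.46%) and below all of them for 392 genes (3.41%). The median log2 fold change of all autosomal genes was -0.22 in edgeR, 0.12 in limma-voom, -0.15 in DESeq2 and -0.18 without TMM scaling, a shift against which the list medians are set.

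The genes that passed were Zfp423, Gjc1 and 1700011H14Rik, each with almost no count in the ICM. Zfp423 encodes a zinc-finger transcription factor that binds SMAD proteins in BMP signalling (chromosome 8, 87661810 to 87959595, minus strand, GRCm38). It was at 125 CPM in embryo 14 and 1.87 CPM in embryo 17, and the 7 ICM sums held 1 count among them, a pooled ratio of 15501 with a 95% counting interval from 2781 to 612331. Its log2 fold change was 12.29 ± 1.69 (SE, edgeR adjusted p = 0.0305). Gjc1 encodes the gap junction protein connexin 45 (chromosome 11, 102799579 to 102819700, minus strand). It was at 112 and 50 CPM in Epi and at no more than 0.272 CPM in any ICM embryo, a log2 fold change of 9.88 ± 1.42 (SE, edgeR adjusted p = 0.0330). The uncharacterised 1700011H14Rik, outside the rule for named genes and given because it passed, was at 262 CPM in the single cell of embryo 17 and at 0.833 CPM in embryo 14 (log2 fold change 12.77 ± 1.56, SE, edgeR adjusted p = 0.0165). It was detected in 3 of 10 Epi cells, whereas Zfp423 was detected in 10 of 10 and Gjc1 in 9 of 10. Fitted fold changes of genes this close to 0 depend on the prior count.

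These calls changed when single embryos were left out, and the reason was not tested. No gene passed without ICM embryo 4, 8, 10, 12 or 13, 1 passed without ICM embryo 9 or either Epi embryo, and without ICM embryo 11 the calls were 3 higher and 8 lower. No gene passed without the 3 ICM cells that had been made for an earlier study, and 2 passed without the ICM cell with few mapped reads. Over the alternatives, the adjusted p of Gjc1 ran from 3.56e-11 to 0.220, that of Zfp423 from 4.54e-08 to 0.338 and that of 1700011H14Rik from 1.16e-10 to 0.385. The direction of all 3 was the same under each alternative that tested them.

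Igfbp2, Fgfbp1, Ntn1, Dazl and Sh3gl2 were near 0 in most ICM embryos and higher in both Epi embryos, and passed limma-voom but not edgeR. Igfbp2, a binding protein for insulin-like growth factors (chromosome 1, 72824503 to 72852474, plus strand), was at 162 and 210 CPM in Epi, with 0 counts in 4 of the 7 ICM embryos and at most 5.49 CPM in the others. Fgfbp1, which releases FGFs from the matrix, was at 48.6 and 2.92 CPM in Epi and at or below 0.113 CPM in ICM. Ntn1, which encodes the guidance cue netrin-1, was at 17 and 13.6 CPM in Epi, with a single count over the 7 ICM sums. Embryos 14 and 17 were therefore both high for Igfbp2 and Ntn1, while Fgfbp1 came mainly from embryo 14. Dazl, an RNA-binding protein of germ cells, was at 10.8 and 50.3 CPM against at most 0.246 CPM, and Sh3gl2, an endophilin of membrane traffic, was at 18.2 and 39.6 CPM against at most 0.136 CPM.

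**Figure D3:**
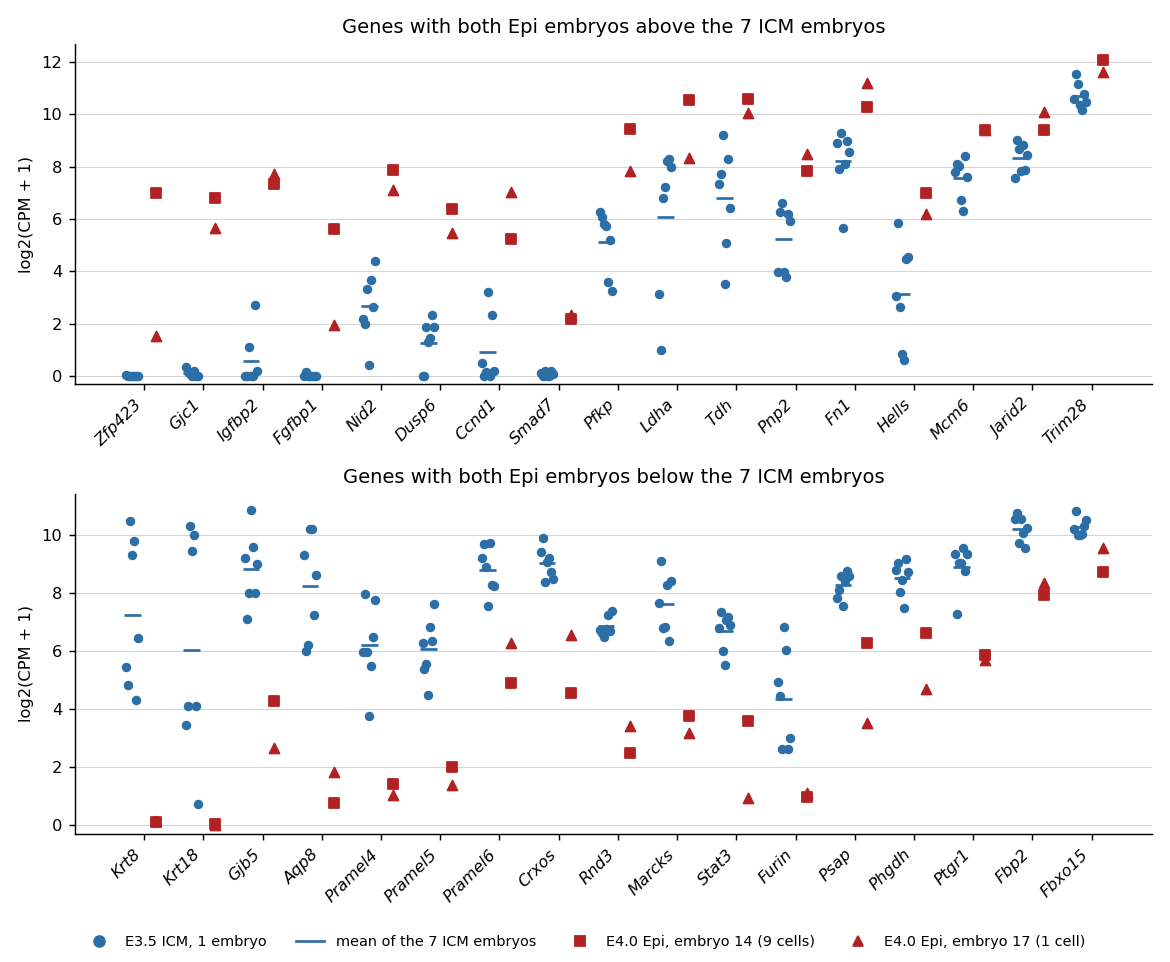
Levels as log2(CPM + 1) for genes whose Epi embryos both lay above (upper panel) or below (lower panel) the 7 ICM embryos, with symbols as in the plot of lineage markers. Zfp423, Gjc1, Igfbp2 and Fgfbp1 sit near 0 in ICM, and Krt8 and Krt18 sit near 0 in Epi. Only Zfp423 and Gjc1 of these genes passed the edgeR test.

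Detection in single cells was compared next. Of 16603 autosomal genes with an RPRT, 3376 were detected in all 10 Epi cells, 3446 in all 14 ICM cells and 2601 in both. Zfp423 was the only gene detected in every Epi cell and in no ICM cell, with a median RPRT of 31.4 in Epi, and Gpr161, a receptor that restrains Hedgehog signalling, was the only gene detected in every ICM cell and in no Epi cell, with a median RPRT of 6.01 in ICM. Detection in all Epi cells and at most 3 ICM cells held for 11 genes. Among them were Stmn2, a microtubule regulator, found in 1 ICM cell, and Igfbp2, Aplp1, Enox1, Cobl, Upk1a and Shprh, each found in 2 ICM cells. Igfbp2 had the highest median of these in Epi, an RPRT of 175, followed by Enox1 at 40.6 and Aplp1, a relative of the amyloid precursor protein, at 37.4. The actin nucleator gene Cobl had a median RPRT of 24.6 in Epi, and its ICM signal of 45.1 CPM lay in embryo 12. For Upk1a, a uroplakin gene, the sums of the groups overlapped, since ICM embryo 12 reached 67.2 CPM and Epi embryo 14 had 29.5 CPM.

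In the other direction, 26 genes were detected in all ICM cells and at most 3 Epi cells. Besides Gata6 and Krt8 they included Tfap2c, a transcription factor of trophectoderm and germ cells, detected in 1 Epi cell and at a median RPRT of 11.8 in ICM. Gulo, the last enzyme of vitamin C synthesis in the mouse, had a median RPRT of 34.8 in ICM and 0 in Epi. Whamm, an activator of actin branching, and Slc37a2, a sugar phosphate exchanger, were each detected in 1 Epi cell. Alppl2, a placental-type alkaline phosphatase, was detected in 2 Epi cells and had a median RPRT of 37.7 in ICM. For Gulo, Tfap2c and Alppl2 the CPM ranges of the groups overlapped, because the cell of embryo 17 held 28.2, 5.14 and 4.32 CPM, and embryo 14 held 0, 0 and 0.0409 CPM.

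**Figure D4:**
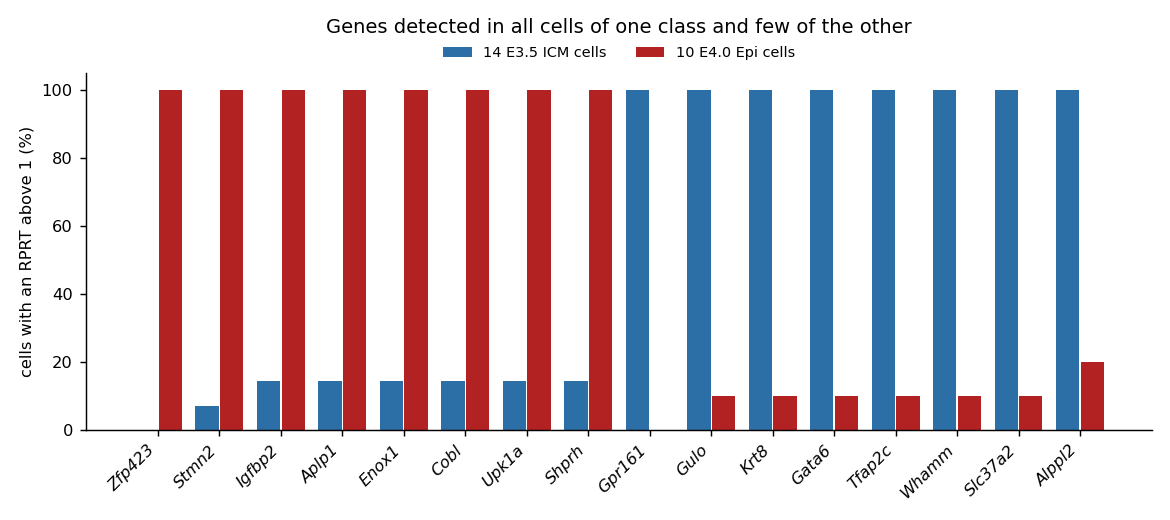
Percentage of cells with an RPRT above 1 for 16 genes chosen by their detection, in blue for the 14 E3.5 ICM cells and in red for the 10 E4.0 Epi cells. The genes on the left are detected in all Epi cells and at most 2 ICM cells, those on the right in all ICM cells and at most 2 Epi cells.

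Several genes known from the preimplantation embryo were lower in Epi without reaching 0. Members of the PRAME family, Pramel4, Pramel5 and Pramel6, were at 1.69 and 1.05, 3.06 and 1.64, and 29.1 and 76.9 CPM in embryos 14 and 17. The lowest ICM embryo held 12.6, 21.6 and 186 CPM of them, so none of the 3 ranges overlapped. Reads of such related genes may be shared in counting, and the split between them is uncertain. Pramel6 alone of the 3 passed limma-voom (log2 fold change -3.26 ± 0.73, SE, edgeR adjusted p = 0.149). Crxos, a homeobox gene, was at 22.7 and 91.9 CPM in Epi and from 329 to 953 CPM in ICM. Fbxo15, a target of OCT4 and SOX2, was at 419 and 749 CPM in Epi and did not fall below 1026 CPM in ICM, although it was listed among pluripotency genes. Both passed limma-voom and not edgeR.

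Rnd3, Gjb5, Marcks, Aqp8, Bok, Kdelr3 and Ciz1 were lower in both Epi embryos than in any ICM embryo, and only Rnd3 of them passed limma-voom. Rnd3, a small GTPase that loosens actin stress fibres, had the lowest p of the named genes below 0, at 4.61 and 9.58 CPM in Epi and from 87.5 to 167 CPM in ICM (log2 fold change -4.05 ± 0.68, SE, edgeR adjusted p = 0.0957). Its ICM values lay close together (117 ± 29.5 CPM, SD, n = 7). Gjb5, the connexin 31.1 gene, was at 18.2 and 5.38 CPM in Epi and at a median of 514 CPM in ICM, in contrast to the connexin gene Gjc1 above. Marcks, a substrate of protein kinase C at the membrane, was at 12.7 and 7.95 CPM in Epi and at a median of 203 CPM in ICM. Aqp8, a water channel of the primitive endoderm list, was at 0.710 and 2.57 CPM and at a median of 389 CPM. Bok, a BCL2 family gene, and Kdelr3, an endoplasmic reticulum retention receptor gene, were detected in 0 of 10 Epi cells and in 13 and 11 of 14 ICM cells. Ciz1, a zinc-finger gene with a role in DNA replication, had no count in Epi, and its ICM mean of 30.6 CPM was at least 833-fold above the floor.

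Signalling genes lay on both sides. Dusp6, the ERK phosphatase that is induced by ERK itself, was at 82.3 and 43.2 CPM in Epi and at no more than 4.06 CPM in ICM (log2 fold change 5.11 ± 1.46, SE, edgeR adjusted p = 0.288). Ccnd1, the cyclin D1 gene, was at 36.4 and 130 CPM in Epi and at no more than 8.35 CPM in ICM. Both passed limma-voom, as 2 of the 20 members tested of the FGF and ERK list, beside 1.38% of all genes. In the same list Fgfr2 was at 0 and 0.468 CPM in Epi and at a median of 20.6 CPM in ICM, and Fos, an immediate early gene, had no count in Epi and ran from 0 to 62.8 CPM over ICM embryos with a median of 9.60 CPM. The list's median of 0.40 had members on both sides (11 above and 9 below 0, beside 43.8% of all genes above 0) and went to -0.42 without Epi embryo 14 and to -0.90 without Epi embryo 17. In the NODAL and BMP list, Smad7, the inhibitory SMAD, was at 3.58 and 4.09 CPM in Epi and at most 0.154 CPM in ICM. Nodal itself was at 1.27 and 2.22 CPM in Epi and present in ICM embryo 12 alone, at 0.308 CPM. It was low in single cells too, detected in 6 of 10 Epi cells and 1 of 14 ICM cells. The highest RPRT was 3.76 in Epi and 4.82 in ICM. Furin, a protease that matures NODAL, was at 0.955 and 1.17 CPM in Epi and at least 5.11 CPM in ICM. Stat3, which transmits LIF signals, was at 11.1 and 0.935 CPM in Epi against 44.6 to 160 CPM in ICM. Of the 12 genes of the LIF and STAT3 list, 8 had a fold change below 0, beside 56.2% of all genes. The list's median of -0.29 was close to the -0.22 of all genes in edgeR. In limma-voom it was -0.54 beside 0.12 for all genes, and in limma-trend -0.27 beside 0.04. Whether the list as a whole lay below all genes therefore depended on the tool.

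Of the metabolic genes, Tdh and Pnp2 were higher in both Epi embryos than in any ICM embryo, and Phgdh was lower. Tdh, the threonine dehydrogenase on which mouse embryonic stem cells depend, was at 1550 and 1045 CPM in Epi and from 10.6 to 594 CPM in ICM, with a median RPRT of 824 over Epi cells and 93.0 over ICM cells. Pnp2, a purine nucleoside phosphorylase gene whose counts may share reads with its neighbour Pnp, was at 227 and 353 CPM in Epi and at most 95.9 CPM in ICM. Phgdh, the first enzyme of serine synthesis, was at 96.9 and 24.9 CPM in Epi and at least 178 CPM in ICM. Of the 24 genes tested for threonine, serine and one-carbon metabolism, 15 were above 0, beside 43.8% of all genes. In that direction 5 had an unadjusted edgeR p under 0.05, beside 2.80% of all genes.

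Several glycolytic genes were higher in Epi, more so in embryo 14 than in embryo 17. Pfkp, a phosphofructokinase gene, was at 687 and 228 CPM in Epi and at most 77 CPM in ICM (log2 fold change 3.39 ± 0.67, SE, edgeR adjusted p = 0.118). Ldha, the lactate dehydrogenase subunit, was at 1473 CPM in embryo 14 and 319 CPM in embryo 17, the latter barely above the highest ICM embryo at 313 CPM. Pkm, the pyruvate kinase gene, was at 3123 CPM in embryo 14 but at 593 CPM in embryo 17, below the ICM median of 610 CPM. The glucose transporter gene Slc2a1 was at 216 and 156 CPM, against at most 146 CPM. The list's median of 0.48 (21 genes) went to -0.59 without embryo 14, a setting in which the median of all genes went from -0.22 to -1.0, and the sign of Pkm changed in the same setting. Fbp2, which runs the opposite step of gluconeogenesis, was at 241 and 327 CPM in Epi and from 748 to 1740 CPM in ICM (log2 fold change -2.11 ± 0.45, SE, edgeR adjusted p = 0.124). Ptgr1, a prostaglandin reductase gene, was at 57.2 and 51.0 CPM in Epi and at a median of 526 CPM in ICM.

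Among chromatin regulators, 14 of 16 genes of H3K9 methylation were above 0 with a median of 0.90, beside 43.8% of all genes and -0.22. The median stayed between 0.69 and 1.18 when any single embryo was left out. The list held genes that remove the mark (Kdm3a, Kdm3b, Kdm4a, Kdm4b and Kdm4c) beside those that place or bind it. Its median is therefore no measure of H3K9 methylation. Trim28, the KAP1 corepressor that recruits H3K9 methylation, was at 4318 and 3137 CPM in Epi and from 1135 to 2961 CPM in ICM. Zfp42, the pluripotency marker Rex1 that was counted in this list too, was at 964 and 403 CPM in Epi and at a median of 278 CPM in ICM, and its ranges overlapped. Eed, a core subunit of PRC2, was at 406 and 551 CPM in Epi against at most 305 CPM, and Jarid2, a PRC2 cofactor, was at 675 and 1073 CPM against at most 523 CPM. The PRC2 list as a whole, which also held the H3K27 demethylase gene Kdm6b, had 7 of 11 genes above 0 and a median of 0.14. Hells, a chromatin remodeller needed for DNA methylation, was at 127 and 71.5 CPM in Epi and at most 56.5 CPM in ICM.

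Replication licensing genes were above 0 for 17 of 22 members, beside 43.8% of all genes. Their median of 0.60, beside -0.22 for all genes, stayed between 0.21 and 0.84 when single embryos were left out. The level of the list also varied between ICM embryos, with an SD of 0.60 on the log2 scale. Mcm6, a subunit of the replicative helicase, was nearly equal in the Epi embryos (665 and 666 CPM) and did not exceed 335 CPM in ICM. Mcm4 was at 410 and 217 CPM in Epi and at most 196 CPM in ICM, and Mcm2 at 556 and 523 CPM, with ICM embryo 11 at 533 CPM within that range. None of these passed edgeR, and Mcm6 passed limma-voom.

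Matrix and lysosome genes gave contrasting single members. Fn1, the fibronectin gene, was at 1254 and 2317 CPM in Epi and at most 628 CPM in ICM (log2 fold change 2.29 ± 0.58, SE, edgeR adjusted p = 0.225), whereas Col4a1, a collagen chain of the primitive endoderm list, was at 20.4 and 1.29 CPM and at least 62 CPM. The lysosome and endocytosis list had 19 of 23 members below 0, beside 56.2% of all genes, with a median of -0.72. Without Epi embryo 14 it was -0.81, above the median of all genes in that setting (-1.0). Psap, the precursor of the saposins, was at 76.1 and 10.6 CPM in Epi and at least 189 CPM in ICM, and Ctsb, the cathepsin B gene, was at 231 and 172 CPM and at a median of 429 CPM. Manba, a lysosomal mannosidase gene, went the other way, at 26.7 and 12.4 CPM against at most 5.80 CPM.

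Cytosolic ribosomal protein genes had 76 of 82 members below 0, beside 56.2% of all genes, with Rps2 and Rpl10l among the exceptions. Their median of -0.90 was -0.42 in limma-voom and -0.27 with the replicate block. Without Epi embryo 14 it was -1.50, where the median of all genes was -1.0. The level of the list varied between ICM embryos with an SD of 0.94 on the log2 scale. Both Epi embryos lay below all ICM embryos for 4 members, beside 3.41% of all genes. Rps27a was at 1402 and 1182 CPM in Epi and ran from 985 to 8770 CPM in ICM, so its ranges overlapped. Rps2 was at 3314 and 1434 CPM in Epi and at a median of 1155 CPM, and the retrogene Rpl10l at 541 and 713 CPM in Epi and at most 201 CPM in ICM. Ribosomal protein genes have many processed copies, and the counts of single members are uncertain for that reason. Among the most abundant protein-coding genes by median RPRT, the prothymosin gene Ptma had 9922 in Epi and 4751 in ICM, the chaperone gene Hspa8 had 6850 and 3420, and the ferritin light chain gene Ftl1 had 4268 and 7957, with CPM ranges that overlapped for Ptma and Ftl1.

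No gene of the other lists passed edgeR. Over all autosomal genes tested, 43.8% lay above 0 and 56.2% below, with a median of -0.22. Medians were 0.18 for NODAL and BMP signalling (13 of 22 above 0), 0.57 for oocyte-stored maternal genes (8 of 13), 0.61 for DNA methylation (11 of 14, with a median of -0.03 without Epi embryo 14 and 1.1 in limma-voom), 0.44 for cyclins and CDK inhibitors (9 of 14), 0.15 for cholesterol synthesis (11 of 19) and 0.11 for ribosome biogenesis (14 of 24). Of the 24 oocyte-stored genes listed, only 13 were tested, with Dnmt1, Uhrf1, Zfp57 and Dppa3 among them. Zar1, Gdf9 and Mos were among those with too few counts, so that median does not speak for the whole list. MHC class I and interferon genes had a median of -0.80, with 7 of 12 below 0, close to the share of all genes. The medians of stress and immediate early genes (-0.79), apoptosis (-0.20) and adhesion and extracellular matrix (-0.26) lay above 0 in limma-voom, and those of the first and the third did so in DESeq2 too.

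**Figure D5:**
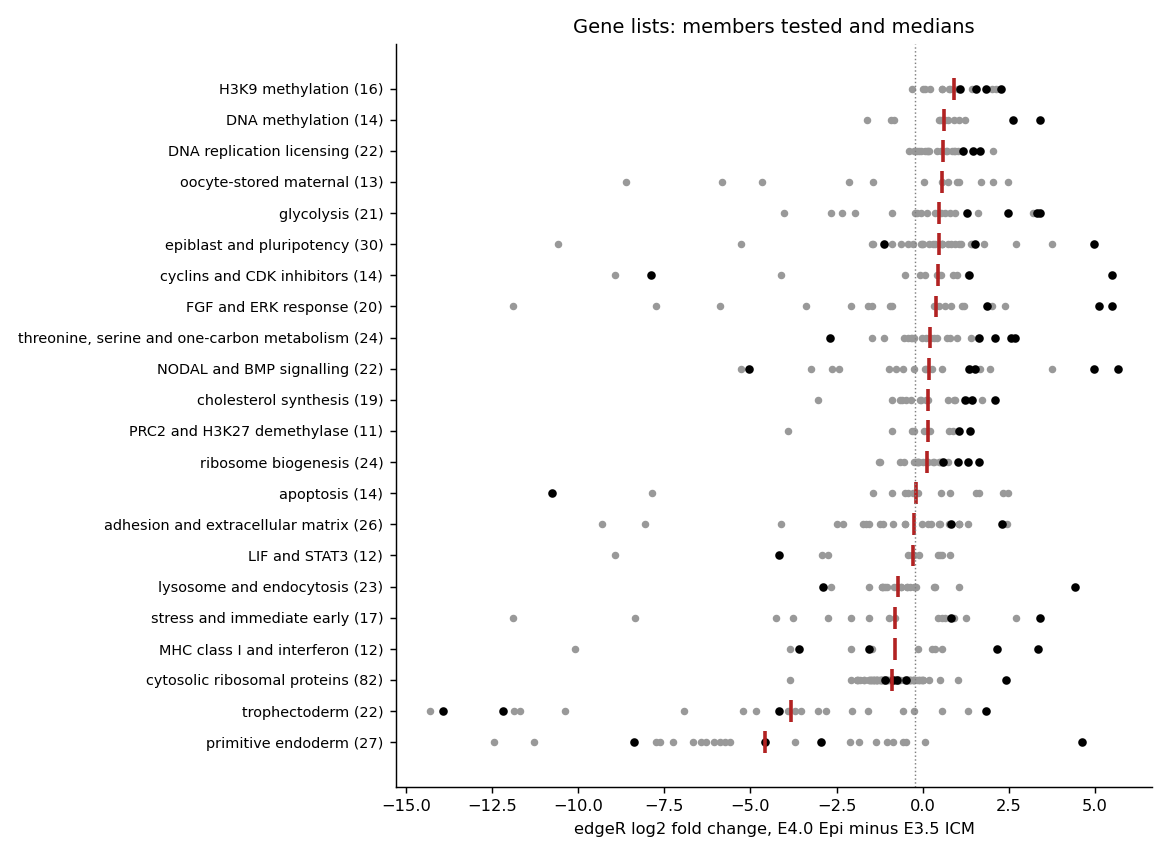
edgeR log2 fold changes (E4.0 Epi minus E3.5 ICM) of the members tested of 22 gene lists, with the number tested in parentheses. Grey dots are members whose groups overlapped, black dots those whose groups did not, red bars the list medians and the dotted line the median of all autosomal genes (-0.22). Primitive endoderm and trophectoderm lists lie farthest to the left, at -4.58 and -3.81.

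The number of autosomal genes detected per cell and the parental balance did not separate the classes. Averaged by embryo, 7742 autosomal genes were detected in Epi cells (7109 in embryo 14 and 8374 in embryo 17) and 7966 ± 679 (SD, n = 7) in ICM cells, a difference of -225 (exact two-sided permutation test, p = 0.778, where 0.0556 is the smallest p that the 36 arrangements allow). Without Epi embryo 14 the difference was 408. With each cell thinned to 2671531 counts, the total of the shallowest cell, 8559 autosomal genes in Epi and 8975 ± 716 in ICM cells had a count (exact permutation p = 0.556), and without thinning these were 9358 and 10015. The median paternal share of autosomal transcripts, among genes above an RPRT of 4, was 49.2% in Epi (48.9% and 49.5%) and 50% ± 0.847 (SD, n = 7) in ICM, with a lowest ICM embryo of 48.8% (exact two-sided permutation test, p = 0.278). Over both classes the median of single cells stayed between 48.1% and 51.3%. The smallest p of this design lies above 0.05, so these tests could not have passed.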

How the data were processed

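Single-cell libraries were read as deposited, in 3 tables for 40 cells. The count table holds raw read counts per gene, which the authors made with TopHat2 2.1.0 (mm10) and HTSeq 0.6.1. The RPRT table holds a signal that the authors normalized to retrotranscribed length and to library depth. The allelic table holds the paternal fraction of parent-specific reads per gene, which the authors computed with SAMtools and SNPsplit. The tables covered 24499, 17280 and 11909 genes, and 40 genes of the count table had no chromosome. Depth sets the precision: counting intervals are exact (95%), cover counting error only and take no account of amplification without molecular identifiers, and 0 counts were read as a floor of 3 counts over the group.

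Stage was taken from the labels, and class and embryo from the study's sample list. The counts of all cells of an embryo and class were added, giving 9 sums, which were tested with edgeR 4.0.16 in R 4.3.3 (filterByExpr, TMM, quasi-likelihood F test, Benjamini-Hochberg over 11909 genes, adjusted p 0.05), while limma 3.58.1 and DESeq2 1.42.0 served as alternatives. The edgeR and limma-voom steps were tested on simulated data with 200 changed genes. The counts were drawn from a negative binomial distribution with dispersions taken from the edgeR fit of these sums. On them edgeR made few false calls, and limma-voom made more than its threshold allows. As the simulation followed the model of edgeR, it cannot rank these tools on the real sums. The share of changed genes that edgeR recovers at the spread of the real sums is not given here. A gene that did not pass edgeR is therefore not shown to be unchanged. For per-cell values, the embryo means entered an exact permutation test (scipy 1.17.1, numpy 2.4.6 and pandas 2.3.3 under Python 3.11.15, with plots by matplotlib 3.10.9). Positions came from GENCODE annotation of GRCm38, the same build as mm10. No embryo gave cells to both classes, so embryo could be a block only in the fit of all 15 sums.

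The compared classes and the 22 gene lists were chosen with earlier results of these data known. Named genes were the markers and factors named by the study, the 15 genes with the largest change in each direction among those passed without overlap and at 10 CPM or more (completed by lowest p), up to 4 members of each list by lowest p, 8 genes in each direction by detection and the 8 most abundant genes of each class. Sox17, Pdgfra, Gata3 and Cdx2 were added as defining markers. Alternatives changed the test, scaling, filter, samples, cell weights and left out embryos, the 3 ICM cells of an earlier study (in ICM embryos 4, 8 and 12) and an ICM cell with fewer than 70% of reads mapped. Thinning was added after the data were seen. X-linked genes were not analysed here.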

Additional observations from a re-analysis of the deposited data

Results flagged for a closer look

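Among 82 groups of values examined by Dixon's criterion, 12 had an ICM embryo standing apart from the other 6. Genes were examined on the log2(CPM + 1) scale, and the groups also held the genes detected and the paternal share per cell. The rate of about 1 in 20 by chance holds for normally distributed values only. Several flagged genes were near 0 in the other ICM embryos, so the number flagged is not read against that rate. In ICM embryo 13, Bmp4 was at 0.572 CPM (others 68.4 to 263), Fn1 at 48.9 CPM (239 to 628) and Aplp1 at 4.57 CPM (0 to 0.454). In ICM embryo 8, Igfbp2 was at 5.49 CPM (0 to 1.14), Shprh at 7.26 CPM (0 to 1.23), Manba at 5.80 CPM (0 to 0.308) and Ciz1 at 1.05 CPM (24.4 to 48.2). In ICM embryo 12, Cobl was at 45.1 CPM (0 to 1.89) and Enox1 at 13 CPM (0 to 0.332). In ICM embryo 11, Ptgr1 was at 154 CPM (428 to 757) and Bok at 0.225 CPM (29.7 to 83.0), and in ICM embryo 4, Rpl10l was at 1.63 CPM (64.5 to 201). Embryos 4, 11 and 13 each gave a single ICM cell. Genes with all ICM embryos under 1 CPM were left out of this examination.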

How the results depend on the processing

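The number of genes passing was 3 higher and 0 lower in edgeR on 9 sums. It was 1 and 0 with all 15 sums, 77 and 508 in DESeq2, 159 and 19 in limma-voom, 190 and 24 in limma-voom with embryo as a replicate block over 15 sums (146 and 8 shared with the fit without it), 37 and 26 in limma-trend on the mean of cells, 0 and 0 at 10 CPM in 2 sums, and 0 and 0 without the 3 ICM cells of the earlier study. Leaving out single embryos gave 0 to 3 higher and 0 to 8 lower. The causes of these and the following changes were not tested.

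Of 87 genes with a fit, 83 kept their direction under every alternative that tested them. The log2 fold changes of Tdgf1 (-0.39 to 2.20 over the fits without single embryos), Prdm14 (-0.18 to 2.24) and Pkm (-0.04 to 2.38) reversed without Epi embryo 14. Pou5f1, at -0.06, reversed in limma-voom (0.38, and 0.50 with the replicate block), without TMM (0.04), in limma-trend (0.02) and without single embryos (-0.49 to 0.30). The difference in autosomal genes detected ran from -857 to 408 without single embryos.

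List medians moved by more than their spread over ICM embryos as follows. In limma-voom, and with the replicate block where a value after a slash is given, they were 0.78/0.87 for epiblast, -2.69 for primitive endoderm, 1.45/1.49 for FGF and ERK, 0.73/0.65 for PRC2, 0.54/0.58 for threonine, serine and one-carbon metabolism, 0.92/0.87 for glycolysis, 0.85 for cholesterol, 0.57/0.64 for stress, 0.65/0.85 for apoptosis and 0.26/0.29 for adhesion genes. In limma-trend they were -1.46 for primitive endoderm, -1.55 for trophectoderm, 0.49 each for NODAL and BMP, PRC2 and threonine, 0.12 for stress, 0.70 for apoptosis and 0.31 for adhesion. DESeq2 gave 0.46 for stress and 0.21 for adhesion, the minimum of 10 CPM gave 0.44 for stress, and leaving out the earlier study's cells gave 0.69 for NODAL and BMP. Without single embryos the ranges were -6.06 to -3.51 for trophectoderm, -0.18 to 0.72 for NODAL and BMP, -0.90 to 0.73 for FGF and ERK, -1.37 to 0.05 for LIF and STAT3, -0.60 to 0.87 for oocyte-stored genes, -0.11 to 0.57 for threonine, -0.59 to 0.61 for glycolysis, 0.11 to 0.52 for cyclins, -2.10 to 0.08 for stress, -0.99 to -0.00 for adhesion and -1.64 to -0.68 for MHC and interferon genes, while the median of all genes went to -1.0 without Epi embryo 14. Within that spread but across 0, the ranges without single embryos were -0.03 to 1.05 for DNA methylation, -0.12 to 0.33 for PRC2, -0.35 to 0.70 for cholesterol and -0.54 to 0.14 for apoptosis genes.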
